A study of Mus musculus with 6 samples.

Results

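10 named genes were followed here, the core genes of mitochondrial fusion, fission and mitophagy. They were the 10 of the 54532 genes in the deposited count table whose name is Mfn1, Mfn2 or Opa1 (fusion), Dnm1l, Fis1 or Mff (fission), or Pink1, Bnip3, Bnip3l or Fundc1 (mitophagy). All 10 were in the table and all 10 passed the filter on low counts. RNA-seq of poly-A selected RNA was made from the left ventricle of mice after aortic banding (AB), a ligature around the aorta that overloads the heart with pressure. The comparison was between 3 libraries from transgenic hearts (TG) and 3 from non-transgenic hearts (NTG), and both groups had AB. The labels give TG the genotype HINT2CTG-Myh6Cre and NTG the genotype C57BL/6J. According to the methods, hearts were taken 4 weeks after AB from male mice that were 8 to 10 weeks old at surgery, and TG mice carried a CAG-HINT2 transgene and a Cre driven by Myh6, a cardiomyocyte gene, and were given tamoxifen. HINT2 is a nucleotide hydrolase of mitochondria. Neither Cre nor tamoxifen is stated for the NTG mice, so the effects of the transgene, of Cre and of tamoxifen cannot be told apart in this comparison. The methods give 3 mice in each group. The comparison asked whether RNA of the genes that shape and clear mitochondria differed in overloaded hearts with added HINT2.

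Mitochondria form a network that is joined by fusion, cut by fission and pruned by mitophagy. Fusion of the outer membrane is done by the mitofusins and fusion of the inner membrane by OPA1, while fission is done by the GTPase DRP1, which binds to adaptors on the outer membrane and constricts it. In mitophagy, damaged mitochondria are handed to autophagosomes either through the kinase PINK1, which marks them, or through receptors in the outer membrane, such as BNIP3, BNIP3L and FUNDC1, that bind the LC3 protein family directly. Heart muscle is dense in mitochondria, and BNIP3 and BNIP3L are known there as receptors whose genes respond to low oxygen and to stress.

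The 2 BNIP3 family receptors had less RNA and Pink1 had more RNA in TG than in NTG hearts, and each of these 3 genes had all TG libraries on 1 side of all NTG libraries. The same held for 11.2% of all genes with TG higher and for 12.3% with TG lower. Bnip3 was at 0.681-fold, Bnip3l at 0.752-fold and Pink1 at 1.40-fold of the NTG level. None of the 3 differences passed the adjustment over all genes in edgeR. The fitted fold changes of the fusion and fission genes lay between 1.03-fold for Fis1 and 1.24-fold for Mfn1, those of Dnm1l and Fis1 changed direction with the scaling, and the groups overlapped for each of the 6.

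The libraries held 14863568 to 17581220 counts on genes in NTG and 14944465 to 17235802 in TG. Hint2 was at 0.819, 28.9 and 32.3 CPM (counts divided by the library size as scaled with TMM, so that libraries can be compared) in NTG 1, NTG 2 and NTG 3, and at 57.2, 47.1 and 53.0 CPM in TG 1, TG 2 and TG 3. The library labelled NTG 1 thus stood apart, with 12 counts of Hint2 where NTG 2 and NTG 3 had 545 and 559. On the first principal component, with 52.3% of the variance, it lay at -5.08, between NTG 3 at 29.3 and TG 2 at -10.7. By the chi-square per gene between the counts of 2 libraries, where a smaller value means more alike, it was nearer to TG 2 (18.1), TG 1 (22.1) and TG 3 (28.6) than to NTG 3 (33.9) and NTG 2 (72.5). Whether it came from an NTG heart was not tested, and each NTG mean and fold change that holds it rests on that label. Fold changes and ratios of the members are therefore given with and without it. Levels per length, and the counts of members set against list means, hold it. Whether all reads of the transgene were counted at mouse Hint2 was not tested. Cardiomyocyte markers were present in every library, with a summed level of 28995 to 48293 CPM over 10 genes in NTG and 45607 to 54875 CPM in TG.

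Across all genes, edgeR called 0 of 14774 higher and 0 lower, where a call needed both an adjusted p below 0.05 and more than 0.5 of log2 change, so that the background share was 0% in each direction. At an unadjusted p under 0.05 in edgeR, 1305 genes were higher and 1442 lower, and DESeq2 called 228 higher and 355 lower. Of the 10 members, edgeR called 0 higher and 0 lower. At an unadjusted p under 0.05, 1 member was higher (Pink1), against 8.83% of all genes, and 2 were lower (Bnip3 and Bnip3l), against 9.76%. The groups did not overlap for 1 member that was higher in TG, against 11.2% of all genes, and for 2 that were lower, against 12.3%. DESeq2 called 0 members higher, against 1.54% of all genes, and 1 member lower (Bnip3), against 2.4%. The median log2 fold change was 0.11 over the 10 members and -0.01 over all genes tested. The median of the members moved with single libraries. It was 0.16 without NTG 1, and without NTG 2 the middle values of the 10 were 0.03 (Mfn2) and 0.04 (Dnm1l).

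**Figure D1:**
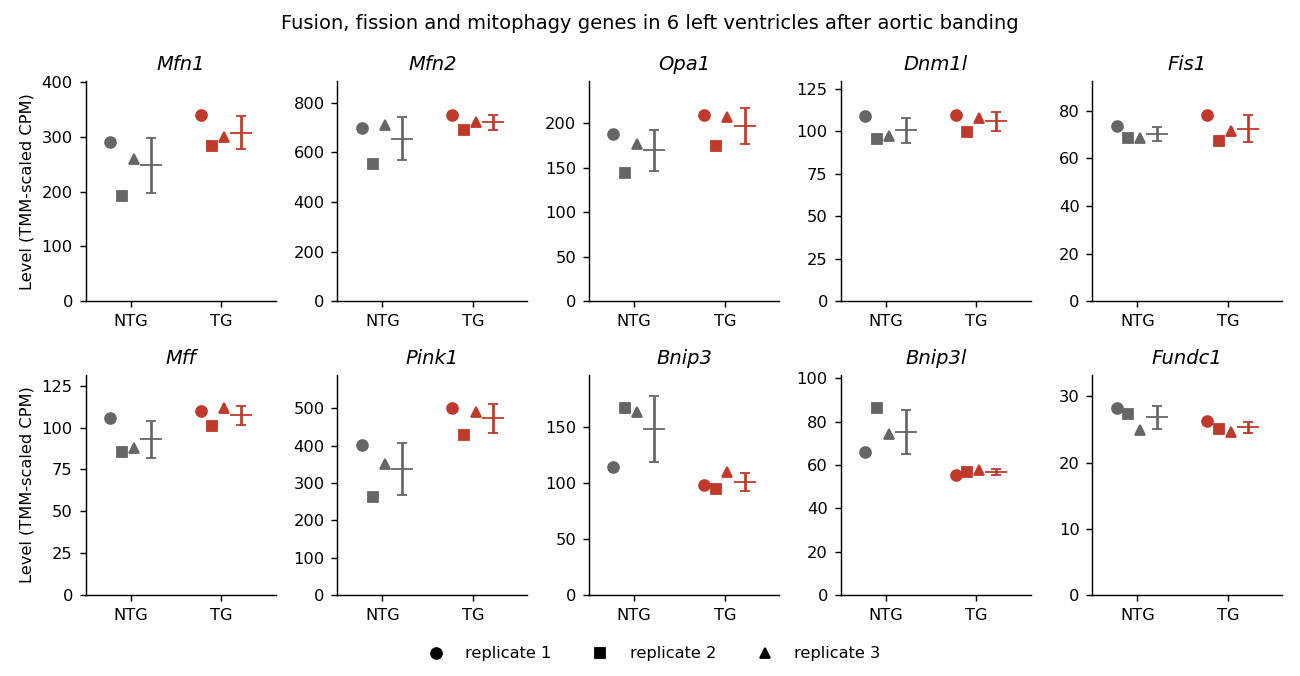
TMM-scaled CPM of the 10 genes (vertical axes, each starting at 0) in the NTG (grey) and TG (red) libraries, with a symbol for each replicate and the group mean with its SD beside the points. The TG points of Pink1 lie above all NTG points and those of Bnip3 and Bnip3l lie below all NTG points, while the groups overlap in the other 7 genes.

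Mfn1 and Mfn2 encode the mitofusins, which tether the outer membranes of neighbouring mitochondria and fuse them. Mfn1 (chr3:32529465-32579239 on GRCm38, plus strand) was at 291, 193 and 259 CPM in NTG 1, NTG 2 and NTG 3, and at 340, 283 and 299 CPM in TG 1, TG 2 and TG 3. NTG 2 was the lowest library and NTG 1 lay above TG 2, so that the groups overlapped. The means were 248 ± 50.3 CPM in NTG and 307 ± 29.7 CPM in TG (SD, n = 3 each), with a log2 fold change of 0.31 (SE 0.16) that did not pass the test (edgeR, adjusted p = 0.339). Mfn2 (chr4:147873599-147904704, minus strand) was at 698, 554 and 709 CPM in NTG and at 752, 689 and 721 CPM in TG. NTG 2 was again the lowest library, and NTG 1 and NTG 3 were both above TG 2. Its log2 fold change was 0.14 (SE 0.14, edgeR adjusted p = 0.604).

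Opa1 encodes the dynamin-like GTPase that fuses the inner membrane and shapes the cristae. Opa1 (chr16:29579334-29654884, plus strand) was at 188, 144 and 176 CPM in NTG and at 210, 174 and 207 CPM in TG, and TG 2 lay below NTG 1 and NTG 3. The log2 fold change was 0.21 (SE 0.13, edgeR adjusted p = 0.401). NTG 2 was the lowest library for all 3 fusion genes, and without it the log2 fold changes were 0.16 for Mfn1, 0.03 for Mfn2 and 0.11 for Opa1.

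Dnm1l encodes DRP1, the GTPase that constricts mitochondria, and was among the most even of the members. Dnm1l (chr16:16312230-16358959, minus strand) was at 109, 95.9 and 97.2 CPM in NTG and at 110, 99.8 and 108 CPM in TG. The highest library was only 1.15 times the lowest, and the log2 fold change was 0.07 (SE 0.09, edgeR adjusted p = 0.692). Fis1 and Mff encode outer membrane proteins, and MFF is the main adaptor for DRP1 there. Fis1 (chr5:136953275-136966234, plus strand) was at 73.5, 68.7 and 68.4 CPM in NTG and at 78.4, 67.3 and 71.7 CPM in TG. TG libraries were both the highest and the lowest for Fis1, with a log2 fold change of 0.05 (SE 0.09, edgeR adjusted p = 0.807). Mff (chr1:82724890-82752394, plus strand) was at 106, 85.4 and 87.8 CPM in NTG and at 110, 101 and 111 CPM in TG. NTG 2 and NTG 3 were below all TG libraries, and NTG 1 was above TG 2. The log2 fold change of Mff was 0.21 (SE 0.11, edgeR adjusted p = 0.336).

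Scaling by library size alone moved the median log2 fold change of all genes to -0.09 and turned the fitted direction of Dnm1l (-0.01) and of Fis1 (-0.04), so that no direction can be given for these 2 genes. Dnm1l shares 243 exon bases with an antisense gene that had 0 or 1 count in each library, and Mff shares 195 with an opposite-strand transcript that had 2 to 8 counts. The strand setting of the counting was not given in the sources used here, so reads in such shared bases cannot be assigned to 1 of the partners.

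Pink1 encodes the kinase that builds up on damaged mitochondria and starts their removal. Pink1 (chr4:138313409-138326307, minus strand) was at 401, 262 and 350 CPM in NTG 1, NTG 2 and NTG 3, and at 500, 428 and 490 CPM in TG 1, TG 2 and TG 3. All 3 TG libraries lay above all 3 NTG libraries, with the smallest gap between TG 2 and NTG 1. The means were 338 ± 70.6 CPM in NTG and 473 ± 38.7 CPM in TG (SD, n = 3 each). The log2 fold change was 0.49 (SE 0.17), with an adjusted p of 0.216 in edgeR and 0.0906 in DESeq2. Pink1 shares 110 exon bases with the microRNA gene Gm27646 and 69 with Mir7019, both on the same strand and with 0 counts in every library.

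Bnip3 and Bnip3l encode a pair of related receptors in the outer membrane that bind LC3 proteins. Bnip3 (chr7:138890836-138909519, minus strand) was at 114, 167 and 164 CPM in NTG 1, NTG 2 and NTG 3, and at 98.6, 94.6 and 110 CPM in TG 1, TG 2 and TG 3. All TG libraries were below all NTG libraries, but NTG 1 was much nearer to TG 3 than to the other 2 NTG libraries. The means were 148 ± 29.4 CPM in NTG and 101 ± 7.93 CPM in TG (SD, n = 3 each), with a log2 fold change of -0.55 (SE 0.15). The adjusted p was 0.196 in edgeR and 0.0463 in DESeq2. Bnip3 shares 504 exon bases with an antisense gene that had 0 counts in every library.

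Bnip3l (chr14:66985239-67008877, minus strand), the gene of the receptor also called NIX, which clears mitochondria from maturing red cells, was at 65.8, 86.1 and 74.1 CPM in NTG and at 55.3, 56.9 and 57.9 CPM in TG. The TG libraries lay within 3 CPM of each other and below all NTG libraries, of which NTG 1 was the lowest. The means were 75.3 ± 10.2 CPM in NTG and 56.7 ± 1.3 CPM in TG (SD, n = 3 each), with a log2 fold change of -0.41 (SE 0.11, adjusted p = 0.196 in edgeR and 0.0684 in DESeq2). Fundc1, the gene of a receptor known for mitophagy under low oxygen (chrX:17556564-17572325, minus strand), was at 28.2, 27.4 and 24.9 CPM in NTG and at 26.3, 25.1 and 24.7 CPM in TG. The 6 libraries of Fundc1 were close together and the groups overlapped (log2 fold change -0.08, SE 0.10, edgeR adjusted p = 0.676).

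The promoters of Bnip3 and Pink1 are shown because these members had the largest differences in each direction and because Bnip3 is known as a gene induced by low oxygen. Both are the 250 bases before the gene's start in RefSeq on GRCm38.p6, written 5′ to 3′ on the strand of the gene, and capitals mark matches to the core of the hypoxia response element (ACGTG or GCGTG, on either strand). The Bnip3 window is chr7:138909507-138909756 on the minus strand, and the Pink1 window is chr4:138326297-138326546 on the minus strand.
Bnip3: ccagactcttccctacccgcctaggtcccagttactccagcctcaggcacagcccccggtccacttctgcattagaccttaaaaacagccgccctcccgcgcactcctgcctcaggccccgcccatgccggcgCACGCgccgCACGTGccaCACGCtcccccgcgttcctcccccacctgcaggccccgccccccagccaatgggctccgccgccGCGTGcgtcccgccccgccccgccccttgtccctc
Pink1: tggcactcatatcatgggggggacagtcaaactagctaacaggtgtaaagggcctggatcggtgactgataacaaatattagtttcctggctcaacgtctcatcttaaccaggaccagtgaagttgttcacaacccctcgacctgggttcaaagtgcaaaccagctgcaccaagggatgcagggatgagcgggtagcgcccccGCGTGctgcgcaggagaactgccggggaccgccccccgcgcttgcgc
The Bnip3 window held 5 matches, at -117, -108, -107, -99 and -35 from the start, of which those at -108 and -107 overlap as both strands of a palindrome. The Pink1 window held 1 match, at -47. At least 5 matches were found in 1.01% of 32851 RefSeq promoter windows of this length, and at least 1 in 38.6%. Of the other members in the promoter table, Mfn2 and Dnm1l had 1 or more matches in at least 1 window, and Mfn1, Opa1, Fis1, Mff and Fundc1 had 0. The FoxO motif GTAAACA and the oestrogen-related receptor half-site AAGGTCA, searched on both strands, had 0 matches in the windows of these members, against 3.17% and 4.08% of all windows. A match of letters shows neither binding nor regulation.

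**Figure D2:**
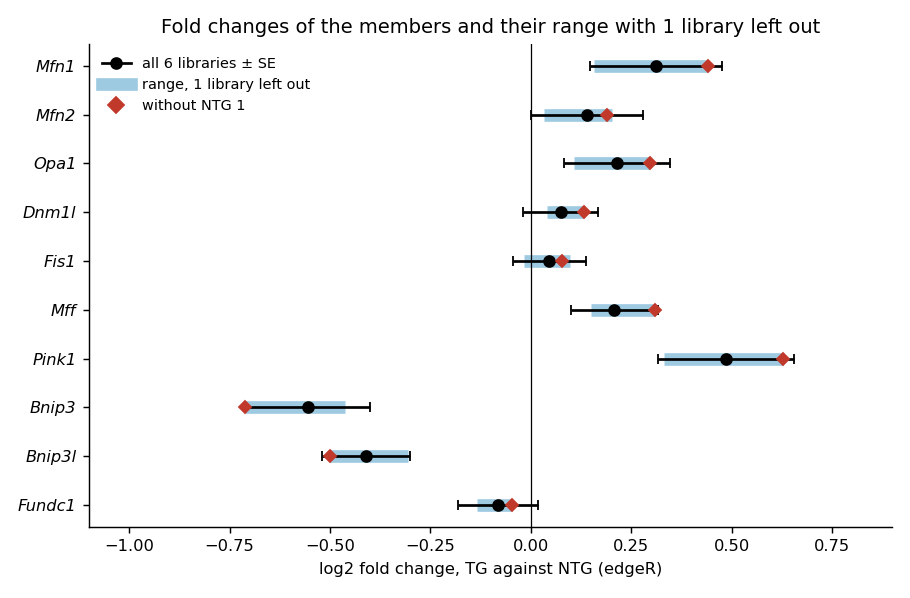
Log2 fold change of each gene, TG against NTG, from edgeR (horizontal axis), with all 6 libraries and its SE (black), the range over fits that each lack 1 library (blue bar) and the value without NTG 1 (red). The bar of Fis1 crosses 0 and those of the other 9 genes do not, and the value without NTG 1 lies at or near the far end of the bar for most genes.

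Without the library labelled NTG 1, the differences of the 3 genes were larger. Within NTG it was the lowest library for Bnip3 and Bnip3l and the highest for Pink1, so leaving it out had to widen these differences. Over all genes the calls also rose, from 0 in each direction to 404 higher and 432 lower. The log2 fold change was 0.63 for Pink1 (edgeR adjusted p = 0.0599), -0.71 for Bnip3 (edgeR adjusted p = 0.0196) and -0.50 for Bnip3l (edgeR adjusted p = 0.0348). Bnip3 and Bnip3l were then called lower, 2 of 10 members against 2.85% of all genes tested, and 0 members were called higher, against 2.67%. Bnip3l, at -0.501, was barely past the threshold of 0.5. DESeq2 without NTG 1 called Bnip3 lower and Pink1 higher, but not Bnip3l (log2 fold change -0.493). At an unadjusted p under 0.05 in edgeR, 3 members were then higher, against 13.7% of all genes, and 2 were lower, against 13.3%. The 3 were Pink1, Mfn1 (log2 fold change 0.44, edgeR adjusted p = 0.125) and Mff (log2 fold change 0.31, edgeR adjusted p = 0.0958). The other members had log2 fold changes of 0.19 (Mfn2), 0.30 (Opa1), 0.13 (Dnm1l), 0.08 (Fis1) and -0.05 (Fundc1), with an adjusted p in edgeR of at least 0.211. The groups then did not overlap for 4 members that were higher, against 23.4% of all genes, and for 2 that were lower, against 23.6%. With each of the other libraries left out in turn, Pink1 stayed above 0.33, Bnip3 below -0.46 and Bnip3l below -0.30 on the log2 scale, and no member was called. Without TG 2, the groups did not overlap for 7 members, against 41.4% of all genes. Without NTG 2 the log2 fold change of Pink1 was 0.33 and that of Bnip3l was -0.30.

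The members were also ordered by their level per length, as CPM per kilobase of gene length over all 6 libraries. Pink1 was the highest at 152 ± 33.6 CPM per kilobase (SD, n = 6), followed by Mfn2 at 132 ± 13.2. These 2 overlapped, and Pink1 was above Mfn2 in 4 of 6 libraries. Bnip3 at 55.0 ± 14.3, Mfn1 at 45.4 ± 8.06 and Fis1 at 41.6 ± 2.42 CPM per kilobase came next, with overlapping ranges. The order by group means differed between NTG and TG for 4 neighbouring pairs. Bnip3 against Mfn1 was at 65.5 against 40.5 CPM per kilobase in NTG and 44.6 against 50.3 in TG, and Mfn1 against Fis1 at 40.5 against 41.0 in NTG and 50.3 against 42.3 in TG. Opa1 (23.3 ± 3.09), Dnm1l (19.9 ± 1.22) and Bnip3l (17.1 ± 3.14) overlapped in turn, and so did Fundc1 (11.1 ± 0.617) and Mff (10.3 ± 1.15). Dnm1l against Bnip3l was at 19.3 against 19.5 CPM per kilobase in NTG and 20.4 against 14.7 in TG, and Fundc1 against Mff at 11.4 against 9.54 in NTG and 10.8 against 11 in TG. The ranges were separate in 3 places, between Mfn2 and Bnip3, between Fis1 and Opa1, and between Bnip3l and Fundc1. The deposited gene length counts the bases of all annotated exons together, used or not, and was longest for Mff with 9757 bases.

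**Figure D3:**
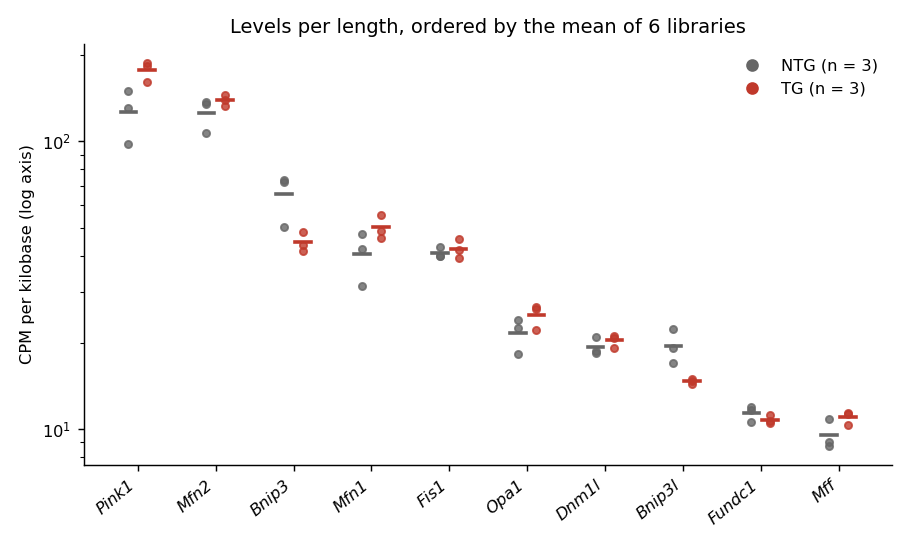
Level of each gene in CPM per kilobase of gene length (vertical log axis) in the NTG (grey) and TG (red) libraries, ordered by the mean of all 6, with a bar at each group mean. Pink1 and Mfn2 lie above 97 CPM per kilobase in every library, and Fundc1 and Mff lie below 12.

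Ratios of counts within a library do not depend on scaling, and 4 of them were compared. The log2 ratio of Mfn2 over Mfn1 was 1.26, 1.52 and 1.45 in NTG and 1.14, 1.29 and 1.27 in TG, a difference of -0.18 (exact permutation test, two-sided, p = 0.3). Mfn2 was thus the more counted mitofusin in all 6 libraries, and the groups overlapped. The log2 ratio of Bnip3l over Bnip3 was -0.80, -0.95 and -1.14 in NTG and -0.83, -0.73 and -0.92 in TG, a difference of 0.13 (exact permutation p = 0.4). The balance of fusion over fission genes, as Mfn2 over Dnm1l and Opa1 over Dnm1l, differed by 0.07 (exact permutation p = 0.6) and 0.14 (exact permutation p = 0.2). Without NTG 1 the 4 differences were -0.25, 0.22, 0.07 and 0.17 in the same order. The difference of Bnip3l over Bnip3 was 0.05 without NTG 3 and 0.09 without TG 2, that of Opa1 over Dnm1l was 0.06 without NTG 2, and that of Mfn2 over Dnm1l was -0.01 without NTG 2 and 0.16 without NTG 3. The adjusted p over the 4 ratios was at least 0.533, and 3 libraries against 3 cannot give an exact p below 0.1.

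**Figure D4:**
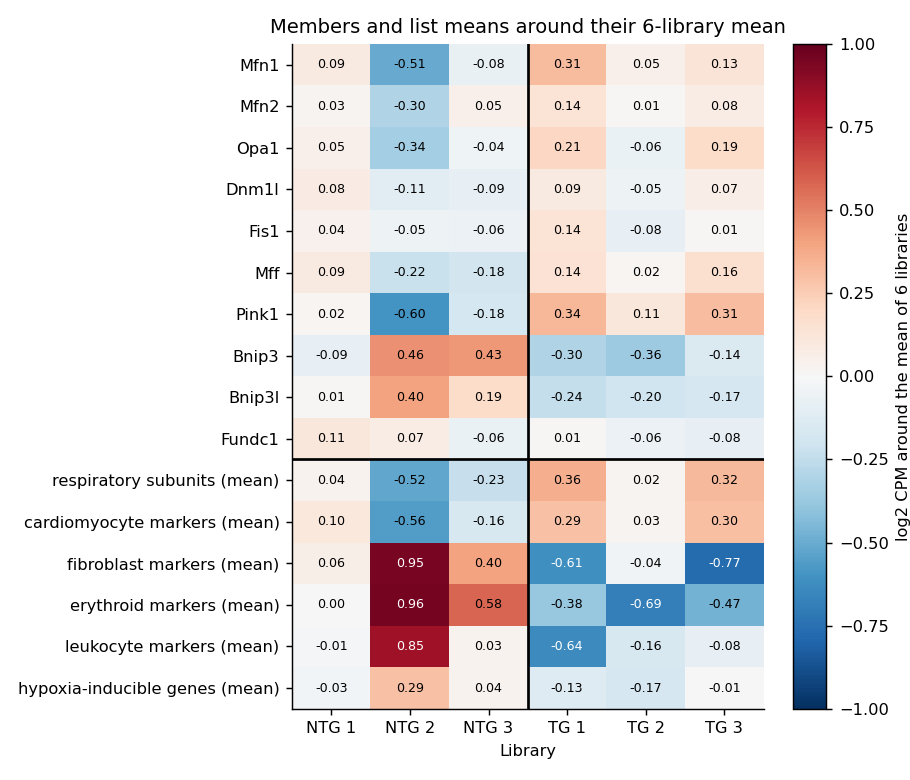
Log2 CPM of the 10 genes, and the mean log2 CPM of 6 marker and pathway lists, around the mean over the 6 libraries (columns), in colour and as numbers. NTG 2 has the lowest values of Mfn1, Mfn2, Opa1 and Pink1 and the highest of Bnip3 and Bnip3l, beside the lowest cardiomyocyte and the highest fibroblast, erythroid and leukocyte means.

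Most members shared a pattern across the libraries. NTG 2 was 0.60 below the 6-library mean for Pink1, 0.51 below for Mfn1 and 0.34 below for Opa1 on the log2 scale, and 0.46 above it for Bnip3 and 0.40 above it for Bnip3l. NTG 1 lay between 0.09 below (Bnip3) and 0.11 above (Fundc1) the mean. Marker lists of cardiomyocytes, fibroblasts, erythroid cells and leukocytes moved with these values. The endothelial list did not, and its mean was 0.02 above its 6-library mean in NTG 2. The mean log2 level of 10 cardiomyocyte markers was 0.56 below its 6-library mean in NTG 2 and 0.30 above it in TG 3, and over the list the median log2 fold change was 0.38, with 2 genes higher and 0 lower at an unadjusted p under 0.05. Of 8 fibroblast markers 0 were higher and 6 lower (median log2 fold change -0.88, summed level 4709 to 10852 CPM in NTG and 2317 to 4017 CPM in TG). Of 5 erythroid markers 0 were higher and 5 lower (median -1.05 on the log2 scale, summed level 1310 to 2245 CPM in NTG and 762 to 908 CPM in TG), and of 7 leukocyte markers tested 0 were higher and 3 lower (median -0.59, 826 to 1454 CPM and 574 to 824 CPM). Over all genes tested, 8.83% were higher and 9.76% lower at an unadjusted p under 0.05. Of 8 endothelial markers 2 were higher and 1 lower (median 0.02), and of 6 mural markers 3 were higher and 0 lower (median 0.23). None of these markers was at 0 in any library. Their part in the differences of Bnip3, Bnip3l and Pink1 was not tested, and in bulk tissue fewer cells of a type and less RNA per cell cannot be told apart.

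The members were also set against the mean of the cardiomyocyte markers in the same library, a scale chosen after the values had been seen. These markers were themselves 0.41 higher in TG on the log2 scale, so that 89.8% of all genes tested are lower in TG on this scale, and 9 of the 10 members were. The marker mean was 0.56 below its 6-library mean in NTG 2, 0.16 below in NTG 3 and 0.10 above in NTG 1. The 0.41 thus leans on NTG 2. The groups did not overlap for 6 members that were lower, against 25.4% of all genes, and for 1 that was higher, against 1.7%. Bnip3 differed by -0.95 and Bnip3l by -0.81 on this scale, and Pink1, the member that was higher, by 0.09. Without NTG 1 the differences were -1.28 for Bnip3, -1.06 for Bnip3l and 0.07 for Pink1. Set against the mean of 19 nuclear-encoded subunits of the respiratory chain, which was 0.47 higher in TG, 9 members were lower, against 91.9% of all genes. The groups then did not overlap for 8 members that were lower, against 36.9%, and for 0 that were higher, against 1.14%, and Pink1 was at 0.03.

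The other genes of these pathways were counted over lists that hold none of the members. Of 13 further fusion genes tested (of 14 listed) 4 were higher and 0 lower at an unadjusted p under 0.05, against 8.83% and 9.76% of all genes, with a median log2 fold change of 0.23 beside -0.01 over all genes. The 3 with the smallest p were Phb2 and Phb, the prohibitins that scaffold the inner membrane and guard OPA1, and Samm50, which sorts proteins into the outer membrane. Phb2 was at 124 ± 15.2 CPM in NTG and 169 ± 14.5 CPM in TG (log2 fold change 0.45, SE 0.12, edgeR adjusted p = 0.196). Samm50 had a log2 fold change of 0.42 (SE 0.12, edgeR adjusted p = 0.196) and Phb of 0.47 (SE 0.15, edgeR adjusted p = 0.207), and the groups did not overlap for any of the 3.

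Of 13 further fission genes tested (of 15 listed) 5 were higher and 1 lower at an unadjusted p under 0.05, beside the same shares of all genes, with a median of 0.20. Mtfp1, an inner membrane protein that promotes fission, was at 58.1 ± 18.9 CPM in NTG and 101 ± 14.2 CPM in TG (log2 fold change 0.80, SE 0.24, edgeR adjusted p = 0.204). It was called higher by DESeq2, and by edgeR without NTG 1. Mtfr1 differed by 0.40 (SE 0.12, edgeR adjusted p = 0.199), and Akap1, an anchor for protein kinase A on the outer membrane, by 0.54 (SE 0.19, edgeR adjusted p = 0.217) with overlapping groups.

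Of 31 further mitophagy genes 3 were higher and 1 lower, against 8.83% and 9.76% of all genes, with a median of 0.03. Tomm7, a subunit of the outer membrane import pore that helps to hold PINK1 there, was at 31.4 ± 2.52 CPM in NTG and 49.0 ± 2.15 CPM in TG (log2 fold change 0.64, SE 0.10, edgeR unadjusted p = 0.000147, adjusted p = 0.196). It was called higher by DESeq2 (adjusted p = 0.000254), and by edgeR without NTG 1 (adjusted p = 0.0233). Map1lc3a, an LC3 gene, differed by 0.49 (SE 0.17, edgeR adjusted p = 0.213) and Gabarapl1, of the same family, by -0.25 (SE 0.09, edgeR adjusted p = 0.227). Of 8 genes of mitochondrial transport 1 was higher and 1 lower, with a median of -0.14. These were Rhot2, a GTPase that links mitochondria to motors (log2 fold change 0.66, SE 0.22, edgeR adjusted p = 0.216), and the kinesin gene Kif5b (-0.33, SE 0.13, edgeR adjusted p = 0.236). The adaptor gene Trak2 had a log2 fold change of -0.24 (SE 0.12, edgeR adjusted p = 0.334), and of -0.15 without NTG 3.

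**Figure D5:**
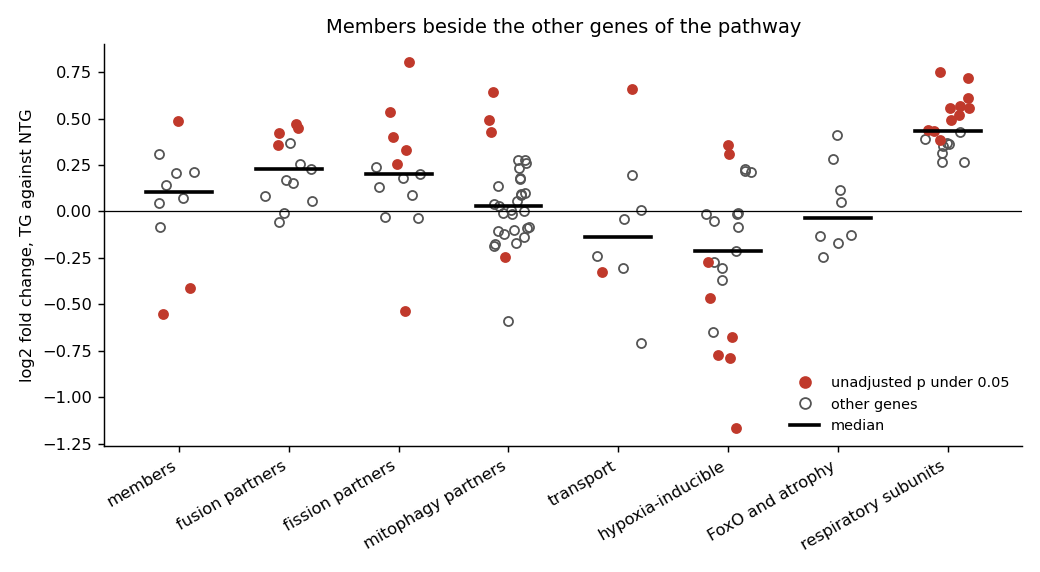
Log2 fold change, TG against NTG, from edgeR (vertical axis) of every gene tested in each list (columns), in red at an unadjusted p under 0.05, with a bar at the list's median. The members spread from -0.55 to 0.49, the respiratory subunits all lie above 0, and the median of the hypoxia-inducible genes is -0.21.

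Since Bnip3 and Bnip3l are known targets of the hypoxia-inducible factors and of FoxO factors, other targets were listed beside them. Of 21 hypoxia-inducible genes 2 were higher and 6 lower at an unadjusted p under 0.05, against 8.83% and 9.76% of all genes, and the median was -0.21. The groups did not overlap for 7 that were lower, against 12.3% of all genes, and for 0 that were higher, against 11.2%. DESeq2 called 0 of the 21 higher, against 1.54% of all genes, and 2 lower, against 2.4%. Ndrg1, a stress gene, was at 102 ± 28.8 CPM in NTG and 58.7 ± 3.27 CPM in TG (log2 fold change -0.79, SE 0.19, edgeR adjusted p = 0.196). Egln3, the gene of an oxygen-sensing prolyl hydroxylase, differed by -0.47 (SE 0.12, edgeR adjusted p = 0.196) and Ero1l, the gene of an oxidase for protein folding, by -0.77 (SE 0.24, edgeR adjusted p = 0.207). The mean of the list was 0.29 above its 6-library mean in NTG 2 and 0.04 above it in NTG 3, and between 0.01 and 0.17 below it in the other 4 libraries. Of 8 genes of FoxO signalling and muscle atrophy 0 were higher and 0 lower at an unadjusted p under 0.05 in edgeR, and DESeq2 called 0 of them (median -0.04). Foxo1 itself had a log2 fold change of -0.17 (SE 0.11, edgeR adjusted p = 0.414), Klf15 of 0.41 (SE 0.28, edgeR adjusted p = 0.443) and Trim63 of 0.28 (SE 0.22, edgeR adjusted p = 0.507). Single libraries moved some of these values. Ero1l was at -0.43 without NTG 2, Foxo1 at -0.08 without TG 1, Klf15 between 0.14 (without TG 3) and 0.64 (without TG 2), and Trim63 between 0.10 (without NTG 2) and 0.47 (without NTG 1). Of 19 respiratory subunits 11 were higher and 0 lower at an unadjusted p under 0.05, with a median of 0.44, and DESeq2 called 5 higher and 0 lower.

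Without NTG 1, edgeR called 2.67% of all genes tested higher and 2.85% lower. It called 7 genes of the fusion, fission, mitophagy, transport and hypoxia-inducible lists, which hold 13, 13, 31, 8 and 21 genes tested. Of the 8 genes of the FoxO and atrophy list it called 0. The 7 were Phb2 (log2 fold change 0.54, adjusted p = 0.0444), Mtfp1 (1.05, adjusted p = 0.0385), Akap1 (0.76, adjusted p = 0.0299), Tomm7 and Rhot2 (0.90, adjusted p = 0.0370), which were higher, and Ndrg1 (-0.97, adjusted p = 0.0179) and Egln3 (-0.58, adjusted p = 0.0249), which were lower. Of the 19 respiratory subunits, 5 were called higher. The median log2 fold change without NTG 1 was 0.32 for the fusion list, 0.27 for the fission list, 0.03 for the mitophagy list, -0.19 for the transport list, -0.29 for the hypoxia-inducible list and 0.58 for the respiratory subunits. Of the markers without NTG 1, the medians were 0.61 for cardiomyocytes, -1.04 for fibroblasts, -1.28 for erythroid cells and -0.77 for leukocytes, with 1 cardiomyocyte marker called higher, and 1 fibroblast, 1 leukocyte, 1 endothelial and all 5 erythroid markers called lower.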

How the data were processed

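Poly-A selected RNA-seq of 3 TG and 3 NTG left ventricles after AB was used. The authors cleaned the reads, mapped them, counted them per gene with featureCounts and deposited raw counts, 1 column per library, without normalization or pooling. The submitters' processing notes name HISAT2, DESeq2 and the build GRCh38, a human build, whereas the identifiers and positions are of mouse: of 54532 genes, 54495 were in GENCODE M21 (GRCm38), 98.3% of them at identical positions, the 10 members included. The strand setting and the treatment of multimapping reads are not given in the sources used here. 27 gene names that had turned into dates were repaired from the annotation, and every sample column had its library (0 unmatched).

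The fit was made with edgeR 4.0.16 in R 4.3.3 (TMM, filterByExpr by group, robust quasi-likelihood fit) over all 14774 genes that passed the filter, and p-values were adjusted by Benjamini-Hochberg over these. Calls needed both an adjusted p below 0.05 and more than 0.5 of log2 change. Total counts were 14863568 to 17581220 per library, and TMM factors 0.929 to 1.073. The SD and SE hold counting error and the spread between libraries together. CPM per kilobase uses the deposited gene length. List means are of log2(CPM + 0.5). Ratios between members were compared by exact permutation tests in scipy 1.17.1. Scripts were tested on simulated data. The text names the 10 members, Hint2, and from each of 6 partner lists the 3 genes with the smallest unadjusted p, with ties by the larger fold change. The members and the lists were chosen with earlier results of these data known, so counts within a list are descriptions. The alternatives were other scalings (RLE, upper quartile, library size alone), other filters (none, or 10 counts or more in every library), mitochondrially encoded genes left out, robust = FALSE, an adjusted p alone, DESeq2 1.42.0, limma 3.58.1 (voom), a replicate block and each library left out. DESeq2 without NTG 1 was added after the values had been seen. Promoter windows and gene starts are those of RefSeq (GRCm38.p6). 9 of the 10 members, all but Bnip3l, matched an entry by symbol.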

Additional observations from a re-analysis of the deposited data

How the results depend on the processing

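The direction of Mfn1, Mfn2, Opa1, Mff, Pink1, Bnip3, Bnip3l and Fundc1 was the same under all 17 alternatives, while Dnm1l (log2 fold change -0.0098) and Fis1 (-0.040) turned with library size alone. With each library left out in turn Fis1 ranged from -0.016 (without TG 1) to 0.097. The difference in the Mfn2 over Dnm1l log2 ratio ranged from -0.0076 (without NTG 2) to 0.16. With DESeq2, 228 genes were called higher and 355 lower, and 1 member lower. With no low-count filter in edgeR, 116 genes were called higher and 116 lower, 1 member lower, and 2 members were higher at an unadjusted p under 0.05, against 6.08% of all genes in that fit. In both, the member was Bnip3, and the cause was not tested. DESeq2 without NTG 1 called 896 genes higher and 877 lower, with 1 member higher (Pink1) and 1 lower (Bnip3), and 3 members were higher at an unadjusted p under 0.05, against 13.4% of all genes. With each library left out in turn in edgeR, genes called ranged from 0 to 404 higher and 0 to 432 lower, members called lower from 0 to 2, members higher at an unadjusted p under 0.05 from 0 to 3 (all genes 4.98% to 13.7%), and members whose groups did not overlap from 3 to 7. The highest of these came without NTG 1, except for the 7, which came without TG 2, where the groups did not overlap for 41.4% of all genes tested. The 0 at the unadjusted p came without TG 1 (Pink1, edgeR unadjusted p = 0.0675) and without TG 3 (Pink1, edgeR unadjusted p = 0.0609).

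A fit with the replicate number as a block called 84 genes higher and 147 lower, 0 members, and had 2 members higher at an unadjusted p under 0.05 (Pink1 and Mfn1), against 11.2% of all genes. The correlation of same-numbered deviations from the group means was 0.08, 0.17 and -0.25. What the replicate numbers stand for is not given in the sources used here. Pairs with unlike numbers were not compared, so these values cannot settle whether the numbers pair the libraries. The biological coefficient of variation was 18.7% with 3 libraries a group, which limits the differences that can be called.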
